A study of Mus musculus with 4 samples.

Results

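The Snail, Twist and Zeb factors are the transcription factors best known for turning epithelial cells, and in related settings endothelial cells (ECs), towards a mesenchymal state. 6 genes were read, *Snai1*, *Snai2*, *Twist1*, *Twist2*, *Zeb1* and *Zeb2*, each taken by its symbol, of 53703 features counted in 4 droplet-based scRNA-seq libraries. The libraries were prepared to hold non-hematopoietic cells of the metaphysis of femur and tibia from 12-week-old C57BL/6 mice, depleted of lineage-positive, CD45+ and CD117+ cells with beads. The study's methods give both sexes for its mice in general, without naming those of each library. The 2 mutant libraries (Lats2iΔEC) are from mice with loxP-flanked *Lats2* alleles and the *Cdh5*(PAC)-CreERT2 transgene, whose *Cdh5* promoter limits the recombinase to ECs, given tamoxifen on 5 days at 4 to 5 weeks of age. The 2 control libraries are from littermates without Cre; the study's methods give them the same tamoxifen, whereas the sample labels call them untreated. Whether a library pooled several animals was not given in the sources used here, so p-values measure the spread between these libraries.

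Snail and Zeb proteins are zinc finger factors, and Twist proteins are basic helix-loop-helix (bHLH) factors. All bind short sequences called E-boxes. Snail and Zeb proteins bind E-boxes in the promoters of genes for cell-cell junctions such as *Cdh1* and recruit corepressors, Twist proteins pair with E proteins such as Tcf3, Tcf4 and Tcf12, and Id proteins hold these partners back. TGFβ, BMP, Notch and hypoxia signals are known inducers. In bone several of the factors have other roles: *Twist1* and *Twist2* restrain osteoblast (OB) differentiation, and *Snai2* and *Zeb2* are used by mesenchymal cells in normal development.

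On GRCm39, *Snai1* lies on the plus strand of chromosome 2 from 167380113 to 167384734, *Snai2* on the plus strand of chromosome 16 from 14523425 to 14527252, *Twist1* on the plus strand of chromosome 12 from 34007645 to 34009828, *Twist2* on the plus strand of chromosome 1 from 91729176 to 91796542 and *Zeb2* on the minus strand of chromosome 2 from 44873644 to 45007464. The counts take in exons and introns, and annotated exons cover 75.7% of *Twist1* but 17.0% of *Zeb2* and 7.43% of *Zeb1*, so levels are compared between cell classes and libraries and never between genes.

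Promoter windows of 300 bases (250 before the start and 50 after it, RefSeq, GRCm38.p6) were taken for 4 of the factors, with 7 windows in all. They were searched on both strands for the Snail and Zeb E-box CACCTG, which 20.2% of all 32851 windows hold, and for GGAATG, the core of the motif bound by the TEAD partners of YAP1 and TAZ, the proteins that Lats2 restrains, which 14.7% hold. The 2 windows with a match are shown, with the match in capitals. The *Snai1* window (chr2:167537945-167538244, plus strand) holds 1 CACCTG that begins 126 bases before the start, and no GGAATG. Of the *Zeb2* windows, the one at chr2:45110228-45110527 (minus strand) holds CATTCC, the reverse complement of GGAATG, 157 bases before the start, and no CACCTG. A match is a description of these letters, not of binding.
Snai1: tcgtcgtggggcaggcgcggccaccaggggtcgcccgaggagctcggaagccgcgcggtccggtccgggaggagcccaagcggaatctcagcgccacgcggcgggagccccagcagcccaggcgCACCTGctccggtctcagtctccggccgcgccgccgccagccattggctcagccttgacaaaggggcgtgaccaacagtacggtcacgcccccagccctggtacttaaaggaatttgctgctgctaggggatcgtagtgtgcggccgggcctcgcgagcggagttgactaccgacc
Zeb2: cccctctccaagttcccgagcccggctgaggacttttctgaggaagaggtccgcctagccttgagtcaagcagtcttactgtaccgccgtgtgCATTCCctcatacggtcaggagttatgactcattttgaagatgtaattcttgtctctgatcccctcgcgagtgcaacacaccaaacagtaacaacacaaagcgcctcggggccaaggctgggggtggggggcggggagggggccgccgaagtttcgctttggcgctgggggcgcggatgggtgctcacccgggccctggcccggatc
The windows of *Twist1* and *Twist2* held neither motif. *Zeb1* was left out of this search, and no window was at hand for *Snai2*.

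Barcodes with at least 1000 UMIs and 800 genes were kept after filters on mitochondrial and hemoglobin counts, which left 5119 and 5887 cells in the mutant libraries and 6813 and 6780 in the controls. Total UMIs per library ran from 69636600 to 85899079, and 6 to 16 barcodes were shared by any pair of libraries. Cells were assigned by marker genes, none of them among the 6 factors, so each class name stands for cells that resemble that type by its markers: ECs, mural cells, bone marrow stromal cells (BMSCs, *Lepr*, *Adipoq* and *Cxcl12*), metaphyseal mesenchymal stromal cells (mpMSCs, *Postn*, *Wif1* and *Limch1*), OBs, fibroblasts, chondrocytes (CHOs) and hypertrophic chondrocytes (HCHOs). Of the EC list 12 of 12 markers were highest in ECs, and of the other lists between 4 of 7 (HCHO) and 7 of 7 (mpMSC) were highest in their own class. ECs numbered 528, 655, 830 and 817 in mutant 1, mutant 2, control 1 and control 2, and below replicate 1 of a genotype is given before replicate 2. *Lats2* in ECs stood at 92.9 and 98.1 CPM (counts per 1000000 counts of the class in that library) against 132.7 and 125.2, a log2 fold change of −0.35 ± 0.078 (SE, adjusted p = 0.0046), in counts that include transcripts without the deleted part. Cre-ERT2 stood at 54.9 and 48.8 CPM in mutant ECs and 0.66 and 0.87 in control ECs, so the labels matched the transgene. Some hematopoietic cells remained: 3 Leiden clusters, of 1120, 309 and 401 cells, scored as erythroid and 1 of 355 cells as leukocytes.

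Each factor had its own distribution over the cell classes of control mice. *Zeb1* was an EC gene in this tissue, at 870 ± 42.9 CPM (SD, n = 2) in control ECs, and mural cells came next at 254 ± 10.7. Fibroblasts followed at 238 ± 5.11, the libraries of mpMSCs, HCHOs and BMSCs lay between 164.9 and 207.0 with overlap between neighbours, and CHOs (127 ± 1.49) and OBs (51.4 ± 4.16) were lowest. *Zeb2* was a stromal gene, at 2444 ± 71.2 CPM in BMSCs and 1889 ± 29.5 in mpMSCs, then 852 ± 50.5 in mural cells and 446 ± 19.3 in OBs. Fibroblasts (184 ± 33.4) and ECs (169 ± 7.88) overlapped, and HCHOs (83.8 ± 21.9) and CHOs (35.1 ± 3.89) came last.

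*Snai1* was highest in cartilage, at 107 ± 33.0 CPM in HCHOs and 100.5 ± 8.91 in CHOs, whose libraries overlapped. ECs followed at 43.8 ± 0.58, above the other 5 classes, which ran from 23.4 ± 1.90 in mural cells to 14.5 ± 1.57 in OBs with each neighbour overlapping the next. *Snai2* was led by BMSCs at 272 ± 1.43 CPM, then mpMSCs (128 ± 9.46), CHOs (56.5 ± 1.08) and mural cells (36.8 ± 1.31). ECs (19.3 ± 0.57), fibroblasts (18.9 ± 7.32) and HCHOs (13.2 ± 1.46) could not be ordered by neighbours, and OBs had 9.19 ± 0.91. *Snai1* and *Snai2*, although close relatives, thus had different leading classes.

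*Twist1* was highest in OBs (153 ± 4.70 CPM), followed by mpMSCs (105 ± 0.16) and fibroblasts (60.2 ± 6.95), with BMSCs (43.0 ± 0.94) and mural cells (41.3 ± 5.93) overlapping. CHOs had 21.4 ± 0.80 and HCHOs 13.8 ± 5.45, and ECs were lowest at 2.87 ± 0.87. *Twist2* was found in mural cells (18.6 ± 1.33 CPM), BMSCs (14.0 ± 0.57) and fibroblasts (6.50 ± 0.50) and stayed under 1 CPM on average in the other 5 classes. In OBs, the class with the highest *Twist1*, *Twist2* had 0 and 9 counts in the control libraries.

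Levels between classes were tested in 1 edgeR fit over both genotypes, with the library as a block. Against ECs, 38 of 42 class contrasts of the 6 factors passed. Of all genes 49.1% passed for mural cells, 57.0% for BMSCs, 51.7% for mpMSCs, 53.3% for OBs, 52.2% for fibroblasts, 68.1% for CHOs and 48.5% for HCHOs, so a difference from ECs was common to genes of any kind. *Zeb1* was lower than in ECs in all 7 other classes, by 1.25 ± 0.065 log2 units in mural cells and by 3.05 ± 0.076 in OBs. *Twist1* was higher than in ECs in all 7, by 1.47 ± 0.47 in HCHOs to 5.80 ± 0.19 in OBs. The contrasts that did not pass were those of *Twist2* and *Snai2* in OBs (adjusted p = 0.31 and 0.88), *Snai2* in fibroblasts (0.33) and *Twist2* in HCHOs (0.69). Without control 1 the contrasts of *Snai2* and *Twist1* in HCHOs and of *Twist2* in CHOs and mpMSCs were lost as well (adjusted p = 0.080, 0.15, 0.14 and 0.39), and those of *Twist2* also without mutant 1 (CHOs, 0.088) or mutant 2 (mpMSCs, 1).

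**Figure D1:**
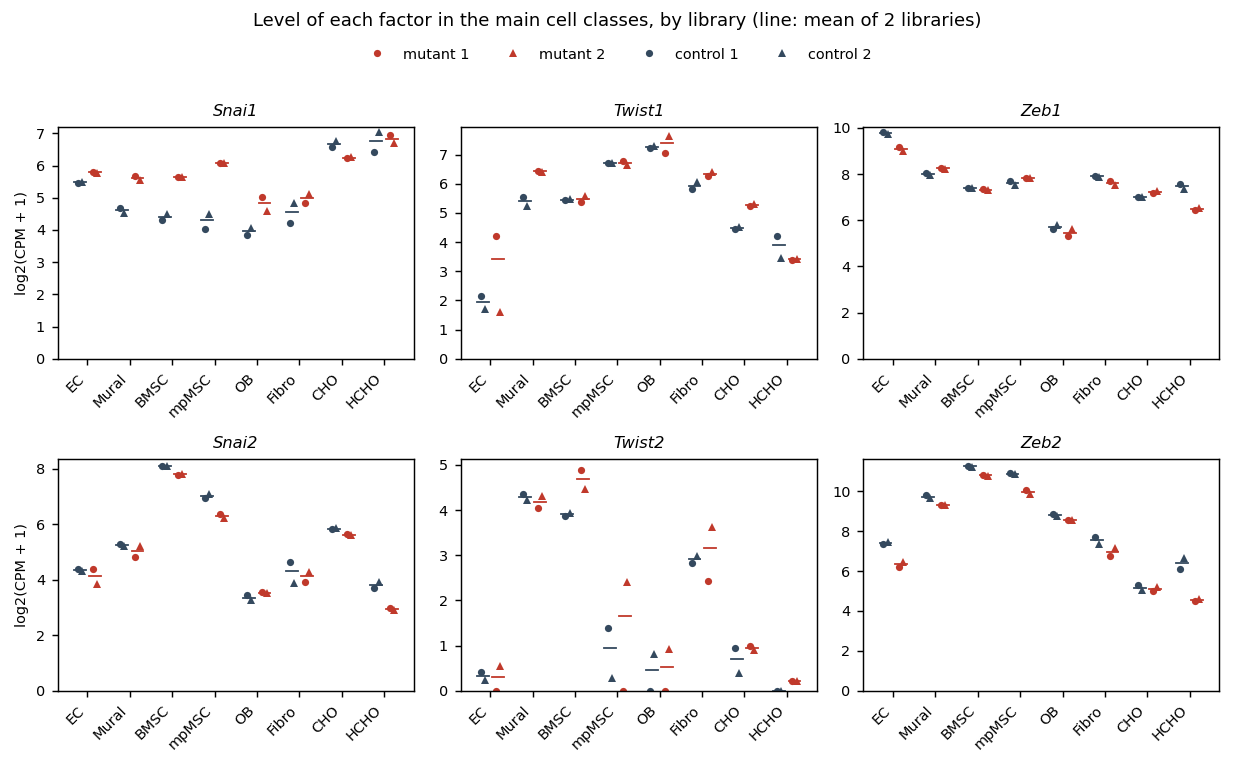
Level of each factor, as log2(CPM + 1), in the 8 main cell classes (x axis), with 1 point per library (red, mutant; dark blue, control; circle, replicate 1; triangle, replicate 2) and a line at the mean of the 2 libraries. *Zeb1* stands highest in ECs (870 CPM in controls), *Zeb2* in BMSCs (2444), and mutant points of *Snai1* lie above both controls in stromal classes.

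Mutant and control libraries were then compared in each class, to ask whether the factors change in the ECs that lose *Lats2* and in the neighbours in which the Cre driver is not active. In ECs 5 of the 6 factors passed the filter on low counts, and *Snai1* rose while *Zeb1* and *Zeb2* fell, beside 36.5% of 14182 genes called. Of 5 tested in mpMSCs and 6 each in mural cells, BMSCs and CHOs, 4 were called in every one of these classes, where 23.3%, 27.9%, 19.0% and 39.4% of genes were called. HCHOs had 2 of 5 called (all genes 30.8%), OBs 1 of 5 (3.59%) and fibroblasts 0 of 6 (0.458%) by edgeR. Without the count filter *Zeb2* was called lower in OBs and fibroblasts as well. In fibroblasts 2 factors had an unadjusted p under 0.05, and DESeq2 called 0 of the 5 for which it gave an adjusted p. Over the 8 classes *Snai1* was called higher in 5 and lower in 1, *Zeb2* lower in 5, *Snai2* lower in 3, *Twist1* higher in 2, *Twist2* higher in 1 of the 4 where it was tested, and *Zeb1* higher in 3 and lower in 2. Of all genes, 18.8% were called higher in ECs, 14.7% in mural cells, 10.1% in BMSCs, 13.2% in mpMSCs, 2.72% in OBs, 0.355% in fibroblasts, 20.8% in CHOs and 15.8% in HCHOs. In the same order 17.7%, 13.2%, 8.89%, 10.1%, 0.864%, 0.103%, 18.7% and 15% were called lower. The factors did not move as a block.

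*Zeb1* fell in ECs, from 900 and 839 CPM in the controls to 584 and 514 in the mutants, a log2 fold change of −0.58 ± 0.065 (SE, adjusted p = 4.2e-05). Both mutants lay well below both controls. After each cell was thinned to 2000 counts, 53.0% and 53.6% of mutant ECs held a *Zeb1* count against 69.2% and 68.9% of control ECs, and without thinning 80.3% and 77.4% against 84.9% and 82.4%, at median depths of 6869.5 and 6620 against 5584.5 and 5293 UMIs. In OBs, where *Zeb1* was lowest, 6.92% to 11.4% of thinned cells held a count. *Zeb2* fell further, from 164 and 175 CPM to 72.9 and 86.1, by 1.00 ± 0.094 on the log2 scale (adjusted p = 1.2e-05), and by 1.70 when barcodes with markers of another class were left out. Thinned mutant ECs held a *Zeb2* count in 11.2% and 10.4% of cells against 22.3% and 21.1% of control ECs, and in CHOs, where it was lowest, 3.26% to 5.49%.

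*Snai1* was the only factor called higher in ECs, at 55.1 and 53.5 CPM against 43.4 and 44.2, with a log2 fold change of 0.39 ± 0.082 (adjusted p = 0.0032). The groups did not overlap, but DESeq2 gave an adjusted p of 0.103 for the same fold change, and leaving out barcodes with markers of another class gave 0.32 with an adjusted p of 0.1002. After thinning, 5.28% and 7.54% of mutant ECs held a *Snai1* count against 6.16% and 7.55% of control ECs, and before it 28.0% and 26.6% against 20.5% and 20.8%. *Snai2* stood at 19.95 and 13.5 CPM against 19.7 and 18.9 and was not called (−0.14 ± 0.18, adjusted p = 0.56). *Twist2* had 0, 3, 2 and 1 counts in all ECs and was not tested.

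The makeup of the ECs differed between genotypes. Arteriole-like or venous ECs (alECs) made up 23.9% and 24.4% of mutant ECs against 9.16% and 9.18% of control ECs, and tip-like ECs (tipECs) 12.1% and 14.8% against 1.69% and 1.47%. Metaphyseal capillary ECs (mpECs) made up 18.6% and 15.9% against 31.9% and 29.1%, and sinusoidal marrow ECs (bmECs) 9.28% and 8.85% against 24.9% and 26.4%. With the 5 subtypes weighted equally, the log2 ratio of mutants over controls was −0.43 for *Zeb1* (−0.66 pooled), −0.63 for *Zeb2* (−1.09 pooled) and 0.48 for *Snai1* (0.31 pooled), so each kept its direction. The tipECs, with only 14 and 12 control cells and 1 and 7 control counts of *Snai1*, weighed as much as the other subtypes. ECs without a subtype were left out of this weighting. Summed markers of other types moved too: in mutant ECs mural markers stood at 596 to 703 CPM against 933 to 935, OB markers at 177 to 227 against 473 to 884 and erythroid markers at 584 to 656 against 266 to 301. The ECs' own markers stood at 7823 to 7826 CPM against 9426 to 9681 and markers of BMSCs, the class with the most *Zeb2*, at 2104 to 2150 against 2353 to 2549, and the part of these markers in the results was not tested. Free RNA was estimated at 1.05% to 1.74% of EC counts, which comes to between 1.75 and 7.44 CPM of *Zeb2* at most 1.97 CPM of *Zeb1* and 0.62 to 0.84 CPM of *Snai1*. With it subtracted all 3 factors were called.

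Of the subtypes *Zeb2* was called in arterial ECs (aECs), which also held the most *Zeb2* among control EC subtypes. It stood at 114 and 123 CPM in mutant aECs against 317 and 333 in controls, a log2 fold change of −1.36 ± 0.12 (adjusted p = 8.1e-06, beside 13.5% of genes called in aECs). BMSC markers in aECs stood at 2202 to 2415 CPM in mutants against 3081 to 3322, OB markers at 135 to 191 against 677 to 1561 and leukocyte markers at 14.9 to 20.9 against 39.2 to 65.3, and their part in the *Zeb2* value was not tested. In alECs *Zeb2* had 10 and 11 counts in mutants and 7 and 21 in controls, that is 9.69 and 7.42 CPM against 14.7 and 49.3 (−1.87 ± 0.51, adjusted p = 0.053; −2.52 and 0.018 without control 1, −1.80 and 0.0028 without the count filter, −1.88 and 0.048 without TMM scaling, −2.41 and 0.047 with the UMI and gene minimum as the sole filters on cells). In mpECs the libraries overlapped (43.3 and 97.1 against 93.5 and 131 CPM, adjusted p = 0.18; without mutant 2, −1.30 and 0.0091; without the count filter, −0.67 and 0.0012; with Leiden clusters, −0.66 and 0.015). The bmECs gave 161 and 259 against 202 and 185 CPM (0.25 ± 0.19, adjusted p = 0.49), and without mutant 1 the value was 0.53 (adjusted p = 0.031). The size of the *Zeb2* change in aECs against that in the other subtypes differed by −0.90 ± 0.31 on the log2 scale, with an adjusted p of 0.25 (all genes called 0.785%), so a subtype-specific fall was not shown.

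*Zeb1* was called lower in mpECs and bmECs. In mpECs, which had the highest *Zeb1* of control subtypes (1136 and 1005 CPM), mutants had 732 and 560 (−0.66 ± 0.11, adjusted p = 0.0038, all genes 14.7%). In bmECs it stood at 665 and 542 CPM against 946 and 893 (−0.51 ± 0.12, adjusted p = 0.025, all genes 7.14%). Leaving out control 1 lost both calls, and leaving out mutant 2 or control 2 lost that in bmECs. These fits hold 1 library of a genotype, and fewer of all genes were called in them as well. Over all alternatives run, the log2 fold change ran from −0.86 to −0.49 in mpECs and from −0.65 to −0.38 in bmECs. The summed EC markers also stood lower in mutants in both, at 8506 to 8618 against 10746 to 10906 CPM in mpECs and 5507 to 6584 against 7924 to 8129 in bmECs, and their part in the *Zeb1* values was not tested. The aECs had 531 and 434 against 607 and 617 CPM without a call (−0.25 ± 0.099, adjusted p = 0.13; called at −0.40 without mutant 1, −0.34 without TMM scaling, −0.28 with the stricter count filter and −0.35 with Leiden clusters), and alECs, lowest in *Zeb1*, 269 and 342 against 272 and 322. The change in mpECs differed from that in the other subtypes by −0.55 ± 0.16, with an adjusted p of 0.22 (all genes called 0.173%).

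*Snai1* had its lowest control mean in aECs, where the libraries lay within the range of alECs, and was called higher in aECs, at 38.7 and 40.4 CPM against 20.9 and 18.7, with 44, 56, 25 and 20 counts behind the values (1.09 ± 0.24, adjusted p = 0.0091; DESeq2 0.17). In the next subtypes, drawn from the same 4 libraries, *Snai1* was not called. It stood at 50.4 and 46.5 against 16.8 and 32.9 CPM in alECs, 84.0 and 76.5 against 61.4 and 64.9 in mpECs, and 63.2 and 61.9 against 48.9 and 35.8 in bmECs (adjusted p = 0.11, 0.090 and 0.13). The alECs gave 1.52 (adjusted p = 0.039) without control 2, 1.06 (0.037) without the count filter and 1.26 (0.017) with Leiden clusters, from 8 and 14 control counts, and the bmECs 0.94 (0.0068) with Leiden clusters. By edgeR 0 factors were called in alECs and tipECs, where 4.05% and 0.368% of genes were; at an unadjusted p under 0.05 there were 2 and 0, and DESeq2 gave an adjusted p for *Zeb1* alone, without a call. The tipECs numbered only 14 and 12 in the control libraries. *Snai2* stood between 9.36 and 29.3 CPM over the aEC, alEC, mpEC and bmEC libraries and was called in none of these subtypes.

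**Figure D2:**
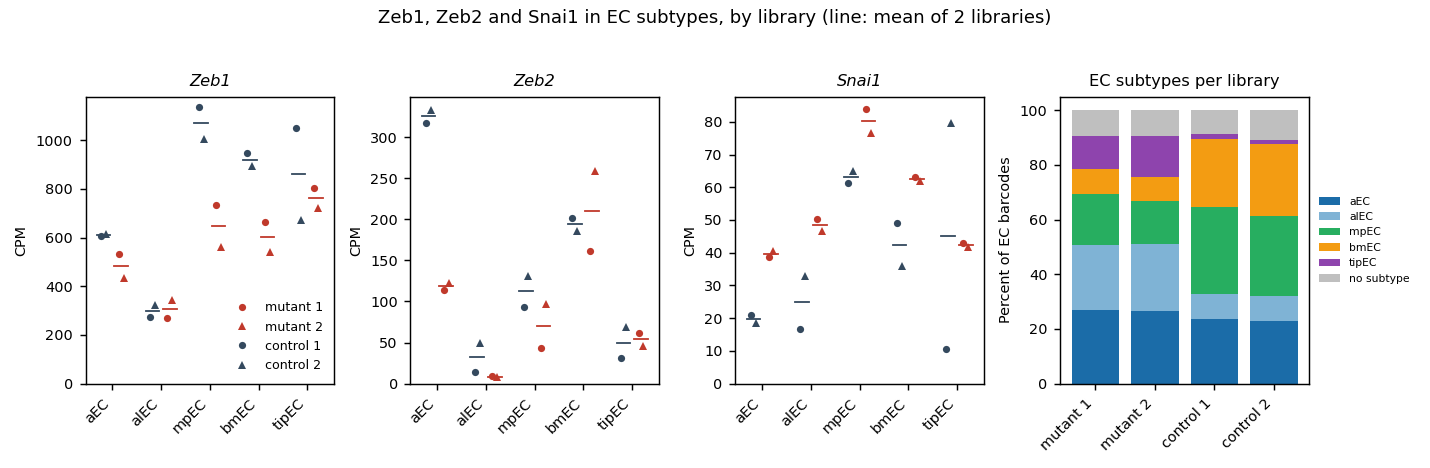
CPM of *Zeb1*, *Zeb2* and *Snai1* in the 5 EC subtypes (1 point per library; line, mean of 2 libraries), and the percent of EC barcodes in each subtype per library (right, stacked bars). *Zeb2* in aECs falls from 317 and 333 to 114 and 123 CPM, and alECs and tipECs take a larger share of mutant ECs.

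*Twist1* in ECs shows how few cells can set a level. It stood at 17.6 CPM in mutant 1 but 2.05 in mutant 2, beside 3.48 and 2.25 in the controls (1.78 ± 0.72, adjusted p = 0.077). Of the 89 counts in mutant 1, 75 came from 2 barcodes (55 and 20 counts), which were singled out after their values were seen. They held 47002 and 37558 UMIs, 11 and 10 of the 12 EC markers, 818 and 376 counts of *Vim* (vimentin, an intermediate filament of mesenchymal cells) and 128 and 57 counts of *Fn1* (fibronectin). The first held 130 counts of EC markers and 129 of fibroblast markers, the second 102 and 35, and Cre-ERT2 had 1 and 0 counts. Whether each is 1 cell or 2 cells in a droplet was not tested. The 2 barcodes were picked for their *Twist1* counts and taken from mutant 1 alone, so a fall on leaving them out was fixed in advance. Without the first barcode the log2 fold change was 0.63 ± 0.49, and without both it was −0.18 ± 0.39. Leaving out mutant 2, control 1 or control 2 instead gave 2.68, 2.12 and 1.51, each called, as was the value without the count filter (1.77, adjusted p = 1.5e-08).

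**Figure D3:**
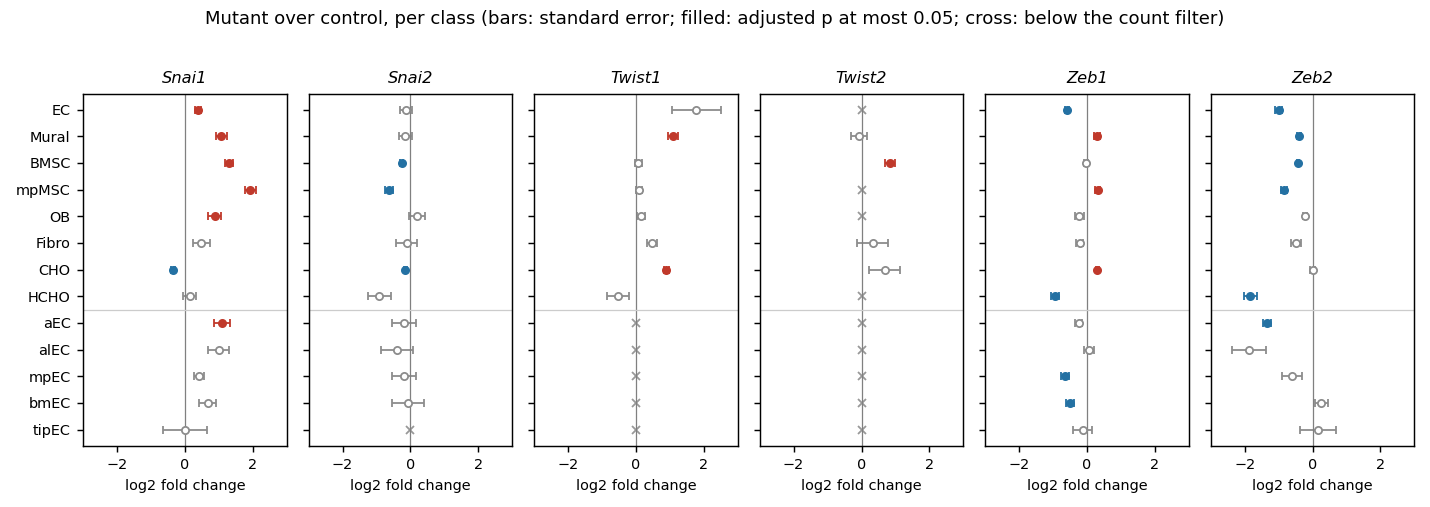
Log2 fold change of mutants over controls (x axis; bars, standard error) for each factor in the 8 main classes and, under the line, the 5 EC subtypes. Filled points have an adjusted p of at most 0.05 (red, higher; blue, lower), and crosses mark factors below the count filter. *Zeb2* has blue points in 5 main classes and *Snai1* red points in 5, with 1 blue point in CHOs.

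Outside ECs, to which the *Cdh5* promoter limits Cre, *Snai1* rose in stromal cells and OBs as well. In mpMSCs, the osteogenic stroma of the metaphysis, it went from 15.4 and 21.8 CPM in controls to 67.0 and 66.1 in mutants (1.93 ± 0.16, adjusted p = 3.6e-06). BMSCs, the reticular stroma of the marrow, had 48.7 and 48.5 against 18.7 and 21.8 CPM (1.30 ± 0.11, adjusted p = 1.4e-06). The summed markers of CHOs, the cells with high *Snai1*, moved with it, at 2079 to 4363 CPM in mutants against 1138 to 1607 in controls in mpMSCs and 842 to 934 against 653 to 763 in BMSCs, and their part in the *Snai1* values was not tested. In OBs *Snai1* stood at 31.6 and 23.0 against 13.4 and 15.6 (0.87 ± 0.19, adjusted p = 0.017). The groups did not overlap in any of these classes, but the OB call, from 105 and 131 mutant cells, was lost with DESeq2 (adjusted p = 0.14), with the UMI and gene minimum as the sole filters on cells (0.052), and without mutant 1 (0.11), control 1 (0.26) or control 2 (0.0953). In fibroblasts, at 27.4 and 33.6 against 17.4 and 27.4 CPM, the libraries lay side by side and no call was made (adjusted p = 0.41).

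*Zeb2* fell in the same stroma, where it is most abundant. In BMSCs it went from 2495 and 2394 CPM to 1786 and 1759 (−0.43 ± 0.041, adjusted p = 5.4e-06), and in mpMSCs from 1910 and 1869 to 1054 and 932 (−0.84 ± 0.082, adjusted p = 1.3e-05). Both shifts exceed the gap between replicates several times over. *Snai2* fell too, from 273 and 271 to 218 and 226 CPM in BMSCs (−0.26 ± 0.051, adjusted p = 0.0025) and from 122 and 135 to 82.7 and 73.4 in mpMSCs (−0.63 ± 0.11, adjusted p = 0.0010). The 2 Snail genes thus moved in opposite directions in both stromal classes. In BMSCs summed mpMSC markers stood at 2951 to 3428 CPM in mutants against 3650 to 3892, and OB markers at 2516 to 2517 against 3421 to 3461. Their part in the falls of *Zeb2* and *Snai2* there was not tested. OBs had 378 and 382 against 459 and 432 CPM of *Zeb2* (−0.23 ± 0.067, adjusted p = 0.080) and fibroblasts 108 and 141 against 208 and 161 (−0.49 ± 0.15, adjusted p = 0.20; −0.68 and 0.029 without mutant 2). Both were called without the count filter (−0.31 and 0.0027 in OBs, −0.50 and 0.012 in fibroblasts) and with Leiden clusters (−0.36 and 0.014, −0.76 and 0.0047), and that in OBs also with the stricter count filter (−0.22 and 0.047) and the stricter cell filter (−0.28 and 0.036).

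*Twist2* was called in BMSCs alone of the 4 classes where it was tested, at 28.6 and 20.9 CPM against 13.6 and 14.4, from 84, 76, 150.5 and 154 counts (0.84 ± 0.15, adjusted p = 0.0016). Fibroblast markers in BMSCs stood at 1373 to 1448 CPM in mutants against 1258 to 1266, and mural markers at 739 to 759 against 863 to 878. Their part in the *Twist2* value was not tested. *Twist1* did not pass in BMSCs (40.2 and 47.4 against 42.4 and 43.7 CPM), mpMSCs (110 and 99.2 against 105 and 104) or OBs (133 and 200 against 150 and 156), where the libraries overlapped or nearly touched; without mutant 1 it was called in OBs (0.37, adjusted p = 0.0073), and with Leiden clusters it was called lower in mpMSCs (−0.34, adjusted p = 0.0066). *Zeb1* was slightly higher in mpMSCs, at 228 and 228 against 207 and 186 CPM (0.31 ± 0.086, adjusted p = 0.021), but lost the call without TMM scaling (0.0912), without the count filter (0.12), with DESeq2 (0.18) and without control 1 (0.0787) or control 2 (0.24). BMSCs numbered 472 and 598 in mutants against 1765 and 1688 in controls, and 407 and 514 against 1615 and 1563 by Leiden clusters. For mpMSCs the number depended on the gate, with 181 and 228 against 467 and 481 by marker scores but 490 and 559 against 590 and 617 by Leiden clusters, and 126 and 150 of the mutant but 79 and 93 of the control mpMSCs had scores within 0.05 of a threshold. With the Leiden clusters *Snai1* (2.14), *Snai2* (−0.96), *Zeb1* (0.41) and *Zeb2* (−0.96) kept their calls in mpMSCs. In mpMSCs the summed BMSC markers stood at 4226 to 4299 CPM in mutants and 8255 to 8471 in controls, and the part of such shifts in the values of *Snai2* and *Zeb2* there was not tested.

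The mural class, gated by markers of the pericytes and smooth muscle cells around vessels, carried the most *Twist2* in controls and changed in *Snai1*, *Twist1*, *Zeb1* and *Zeb2*. *Snai1* stood at 50.2 and 45.8 CPM against 24.7 and 22.0 (1.07 ± 0.17, adjusted p = 2.5e-04; 1.66 without barcodes that carry markers of another class) and *Twist1* at 85.8 and 84.5 against 45.5 and 37.1 (1.08 ± 0.14, adjusted p = 3.0e-05). *Zeb2* fell from 888 and 817 to 626 and 632 CPM (−0.40 ± 0.071, adjusted p = 5.6e-04). *Zeb1* was at 304 and 301 against 261 and 246 (0.29 ± 0.080, adjusted p = 0.013), a call lost with DESeq2 (0.11), without control 2 (0.0695), with Leiden clusters (0.0823) and without barcodes that carry markers of another class (0.47). *Snai2* and *Twist2* overlapped between groups.

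The mural class, however, was not made of the same cells in both genotypes. Cells under 5 counts of *Myh11*, the smooth muscle myosin, per 10000 made up 50.1% and 52.9% of mutant mural cells and 6.02% and 7.78% of control ones, which is only 16 and 21 control cells. In these Myh11-low cells the summed mpMSC markers stood at 7088 to 7370 CPM in mutants and 436 to 1554 in controls, against 221 to 253 and 286 to 316 in Myh11-high cells. The study found *Myh11*-negative cells enriched in its mutant smooth muscle cluster, with raised fibrosis markers, and called them likely myofibroblasts. Whether the Myh11-low cells here are the same cells was not tested. In Myh11-high cells, *Snai1* stood at 32.1 and 29.7 against 23.6 and 20.2 CPM and *Twist1* at 51.0 and 53.3 against 41.6 and 37.0, neither of them called (0.56 ± 0.24 and 0.48 ± 0.18, adjusted p = 0.15 and 0.11, beside 10.2% of genes), although *Snai1* was called at 1.53 (adjusted p = 0.016) without barcodes that carry markers of another class. With both groups weighted equally the log2 ratio fell from 1.04 to 0.46 for *Snai1* and from 1.04 to 0.55 for *Twist1*, and that of *Zeb1* went from 0.25 to −0.09. In Myh11-low cells the log2 fold changes were 0.59 ± 0.44, 0.81 ± 0.38 and 0.05 ± 0.19, none of them called, so the estimates for all mural cells were larger than in either group.

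*Zeb2* and *Snai2* behaved the other way around. *Zeb2* fell in Myh11-high cells from 788 and 750 to 501 and 451 CPM (−0.62 ± 0.084, adjusted p = 3.0e-05) and in Myh11-low cells from 2394 and 1771 to 727 and 755 (−1.31 ± 0.15, adjusted p = 8.9e-05, all genes 6.96%). *Snai2* fell in Myh11-high cells from 33.3 and 31.6 to 12.3 and 10.7 CPM (−1.43 ± 0.27, adjusted p = 0.0015). In Myh11-high cells BMSC markers stood at 977 to 1016 CPM against 1290 to 1345 and OB markers at 171 to 230 against 515 to 549, and their part in these falls was not tested. Myh11-low cells, only 16 and 21 in controls, had mural markers at 7649 to 8664 CPM in mutants against 17306 to 18629. Their BMSC markers stood at 3591 to 4134 against 2333 to 2397. The part of such shifts in the Myh11-low values was not tested either. Myh11-low cells, which held more *Snai2* in both genotypes, had 39.7 and 54.2 against 104 and 96.8 CPM (−0.90 ± 0.38, adjusted p = 0.19), and mural cells as a whole 27.5 and 36.5 against 37.7 and 35.9. The *Snai2* call was lost without the count filter (adjusted p = 0.0748) and without barcodes that carry markers of another class (0.36).

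**Figure D4:**
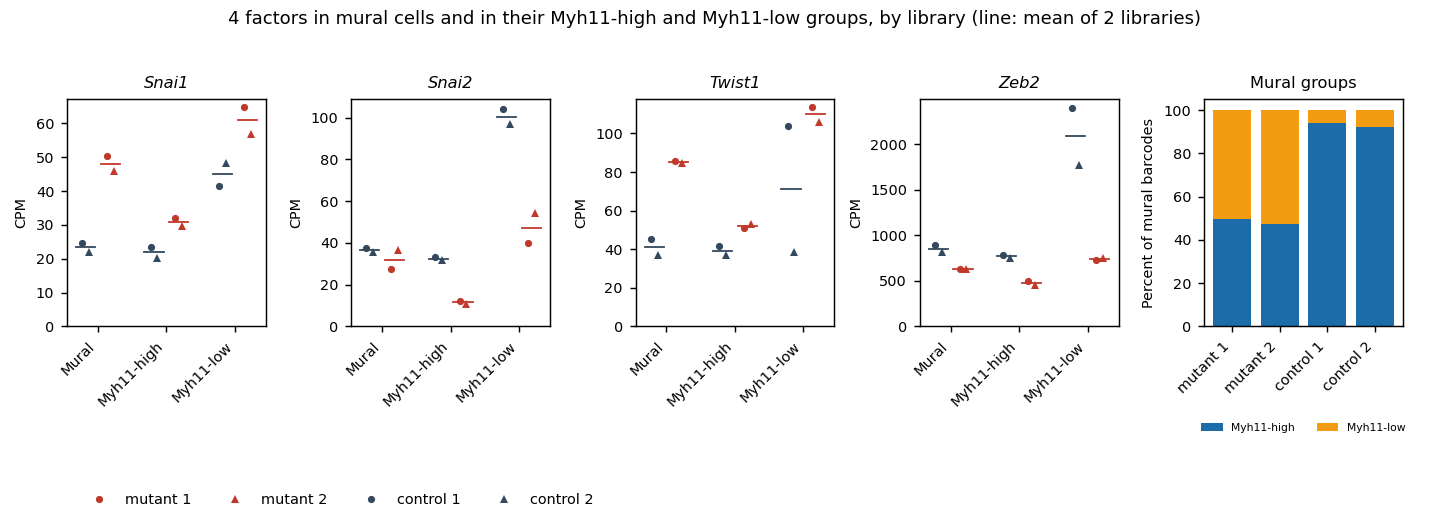
CPM of *Snai1*, *Snai2*, *Twist1* and *Zeb2* in all mural cells and in their Myh11-high and Myh11-low groups (1 point per library; line, mean of 2 libraries), and the percent of mural barcodes in each group (right, stacked bars). Myh11-low cells make up 50.1% and 52.9% of mutant but 6.02% and 7.78% of control mural cells.

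Cartilage gave a further pattern. In CHOs *Snai1*, which is high there, fell from 94.2 and 107 to 73.7 and 75.3 CPM (−0.36 ± 0.063, adjusted p = 8.0e-04), the only class where it was called lower. *Twist1* rose from 20.8 and 22.0 to 36.4 and 38.9 (0.89 ± 0.071, adjusted p = 1.6e-06) and *Zeb1* from 126 and 128 to 145 and 152 (0.30 ± 0.046, adjusted p = 2.9e-04). *Zeb2* had nearly equal means (30.9 and 35.6 against 37.8 and 32.3 CPM) but was called higher (1.30, adjusted p = 0.0039) without barcodes that carry markers of another class, and *Snai2* fell by 0.15 ± 0.054 (adjusted p = 0.048), a call kept under 4 of 14 alternatives, with adjusted p up to 0.32 and lost without any 1 of the libraries. *Twist2*, at 0.31 to 0.98 CPM, was called (1.62, adjusted p = 0.045) when control 1 was left out. Own CHO markers summed to 60359 to 61159 CPM in mutants and 76497 to 76585 in controls, and mural markers to 1342 to 1349 against 605 to 633. Markers of OBs, the class with the most *Twist1*, summed to 6599 to 6611 against 5084 to 5131, those of fibroblasts to 2782 to 2993 against 1675 to 1804, and those of HCHOs, the class with the highest mean of *Snai1*, to 3002 to 3380 against 4550 to 4569. Their part in these changes was not tested.

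HCHOs numbered 665 and 686 in mutants but 64 and 48 in controls, at median depths of 8055 and 7681 against 15319 and 14042 UMIs. *Zeb1* stood at 85.6 and 92.6 CPM against 186 and 165 (−0.95 ± 0.12, adjusted p = 1.3e-04) and *Zeb2* at 21.9 and 23.2 against 68.3 and 99.3 (−1.83 ± 0.20, adjusted p = 4.4e-05; −2.47 with Leiden clusters). In the controls 38.7% and 64.3% of the *Zeb2* counts came from the 2 highest barcodes of each library, and without the 2 highest of every library the values were 16.9 and 19.0 against 43.2 and 36.7 CPM. The mpMSC marker list, which shares *Mmp13* with the HCHO list, summed to 9787 to 10423 CPM in mutants and 43939 to 46097 in controls, and the HCHO list to 26479 to 26918 against 37738 to 41560. BMSC markers summed to 277 to 296 CPM in mutants against 793 to 848, and OB markers to 2015 to 3167 against 9375 to 12403. Without barcodes that carry markers of another class, 0 and 1 control HCHOs remained, against 238 and 229 in mutants. The part of these differences in the *Zeb1* and *Zeb2* values was not tested. *Snai2* stood at 6.93 and 6.46 against 12.1 and 14.2 CPM (−0.92 ± 0.34, adjusted p = 0.066) and was called with free RNA subtracted (−1.04, 0.044). *Snai1* overlapped between groups (122 and 104 against 83.8 and 131 CPM) and was called higher without control 2 (0.49, adjusted p = 0.032).

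Whether the change in ECs differs from that in other classes was tested directly. Of 43 differences of the genotype effect, 9 passed, all of them of *Snai1*, *Zeb1* and *Zeb2* in ECs against mural cells, BMSCs and CHOs, beside 9.79%, 7.42% and 14.0% of all genes. In 25 contrasts of 1 EC subtype with the others edgeR called 0, with 8 at an unadjusted p under 0.05, all of *Zeb1* and *Zeb2*, where 0.785% (aECs), 0.331% (alECs), 0.173% (mpECs), 0.274% (bmECs) and 0.972% (tipECs) of genes were called. *Zeb1* moved more negatively in ECs than in mural cells (by 0.92 ± 0.13 log2 units), CHOs (0.88 ± 0.12) and BMSCs (0.49 ± 0.13). *Snai1* rose less in ECs than in BMSCs, by 0.85 ± 0.16, and *Zeb2* fell in ECs by 1.01 ± 0.16 more than in CHOs, where it was not called. The difference of *Zeb2* from BMSCs (−0.52 ± 0.15) was lost without mutant 1, control 1 or control 2 (adjusted p = 0.28, 0.054 and 0.19), and that of *Zeb1* from BMSCs without control 1 or control 2 (0.14 and 0.054). The differences of *Snai1* (−0.73 ± 0.23) and *Zeb2* (−0.66 ± 0.15) from mural cells rest on a mural class of unlike makeup. With both mural groups and the 5 EC subtypes weighted equally, the log2 ratio of *Snai1* was 0.46 in mural cells and 0.48 in ECs and that of *Zeb2* −1.23 and −0.63, so neither kept its direction, while *Zeb1* kept its own (−0.09 and −0.43). That of *Snai1* was also lost with any 1 library left out (adjusted p = 0.060 to 0.23), and that of *Zeb2* without mutant 1 or control 2 (0.059 and 0.051).

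The wider pathway was read from lists chosen with earlier results known, and described by counts. Among bHLH partners and Id inhibitors, 4 of 7 fell in ECs, with a median log2 fold change of −0.24 beside −0.0006 for all genes tested, of which 18.8% were called higher and 17.7% lower in ECs. *Tcf3* (0.06), *Id1* (0.10) and *Id2* (−0.05), the other members, did not pass. *Tcf12*, an E protein that pairs with Twist, fell from 586 and 535 to 360 and 369 CPM (−0.54), *Id4* by 0.35 and *Id3* by 0.27 on the log2 scale. Of a list of 18 paralogs and other regulators, not all of which bind E-boxes, 6 were tested and 2 rose. These were *Tcf15*, a bHLH factor of capillary ECs and the paraxial mesoderm, from 44.6 and 44.7 to 66.8 and 71.9 CPM (0.72), and *Klf8* (0.39). Of 22 corepressors and stability factors 2 rose, a share below that of all genes, and 8 fell (median −0.15). Among these 8 is *Lats2*, the gene targeted in mutant ECs, so its fall there is no independent result. Its mean was also lower in mutants in the other main classes except HCHOs. It stood at 37.9 ± 0.49 against 44.5 ± 0.61 CPM (SD, n = 2) in CHOs and 83.7 ± 4.27 against 96.8 ± 0.78 in BMSCs. HCHOs had 52.9 ± 5.85 against 48.8 ± 1.20. *Ajuba*, a LIM protein that binds Snail and Lats proteins, rose to 8.89 and 6.45 from 3.31 and 3.29 CPM (1.28) and *Pak1*, a kinase, by 0.99, while *Limd1* (−0.50), a relative of *Ajuba*, the ubiquitin ligase gene *Btrc* (−0.47) and the kinase gene *Lats1* (−0.44) fell.

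Of 14 junction genes 6 were tested in ECs, and 2 rose and 1 fell (median 0.04), beside 18.8% and 17.7% of all genes: *Cdh5*, the cadherin of endothelial junctions, stood at 1019 and 1083 against 989 and 995 CPM (0.17) and *Jam2* rose by 0.19, while *Tjp1* fell by 0.25. Of 20 mesenchymal genes 9 rose and 4 fell (median 0.16), the share that fell being close to that of all genes. *Fn1* (1062 and 713 against 180 and 208 CPM, 2.27) and *Tagln* (an actin-binding protein of smooth muscle, 326 and 297 against 138 and 111, 1.40) rose. *Col1a1* (87.1 and 70.6 against 312 and 391 CPM, −2.08), *Col1a2* (−1.74) and *Cdh2* (−0.96) fell, beside OB markers that were also lower in mutant ECs. Of 20 inducing signals tested 9 rose and 4 fell (median 0.21), again with a share of falls close to that of all genes: the ligand genes *Bmp4* (72.9 and 69.4 against 23.9 and 25.7 CPM, 1.60), *Il6* (1.36) and *Bmp6* (0.81) rose, and the receptor gene *Tgfbr2* (−0.65) and the transducers *Smad3* (−0.58) and *Smad4* (−0.40) fell.

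The mesenchymal list had its highest counts outside ECs, with 16 of 20 genes higher and 3 lower in mpMSCs (median 0.77), 13 and 4 in mural cells (0.70), and 11 and 5 in both BMSCs (0.28) and CHOs (0.32), beside 13.2%, 14.7%, 10.1% and 20.8% of all genes higher and 10.1%, 13.2%, 8.89% and 18.7% lower. In mural cells, a class of unlike makeup, summed mpMSC markers stood at 4025 to 4477 CPM in mutants against 323 to 365. In mpMSCs fibroblast markers stood at 1251 to 1316 against 835 to 971 and BMSC markers at 4226 to 4299 against 8255 to 8471. *Postn* is both a gene of this list and a marker that assigned mpMSCs. The part of these in the counts was not tested. HCHOs had 4 of 19 higher and 4 lower (median 0.01, all genes 15.8% and 15%), OBs 3 of 19 higher (−0.05, all genes 2.72%) and fibroblasts 1 of 19 higher (0.39, all genes 0.355%). The partner and Id list had 5 of 7 higher and 1 lower in CHOs (0.29) and 4 higher and 1 lower in HCHOs (0.71), beside 20.8% and 15.8% of all genes higher.

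**Figure D5:**
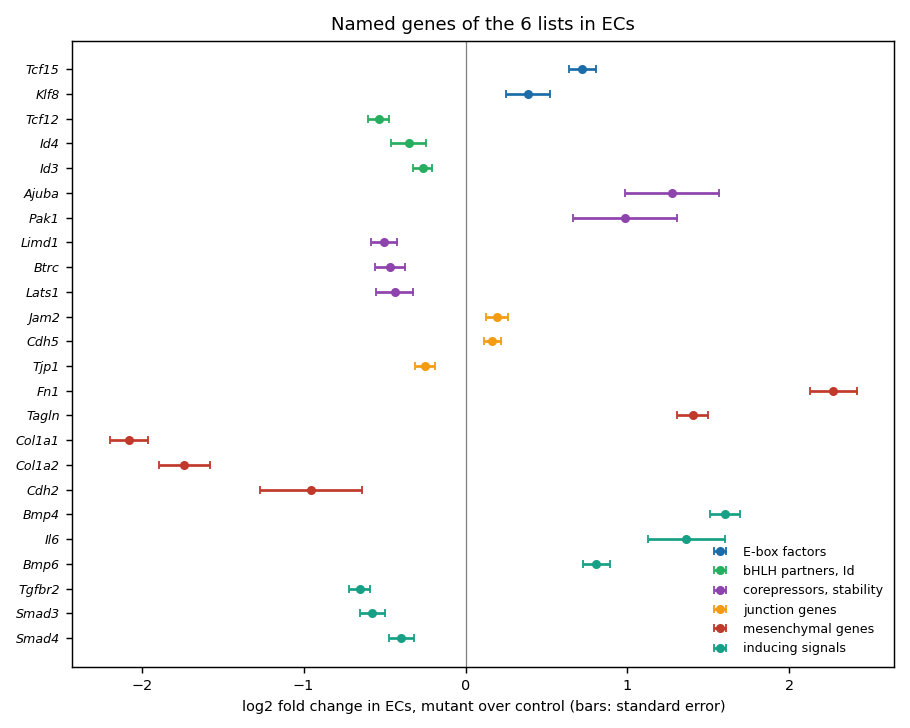
Log2 fold change in ECs of mutants over controls (x axis; bars, standard error) of the genes named from the 6 lists, coloured by list. *Fn1* (2.27) lies farthest right, and *Col1a1* (−2.08) farthest left.

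As a description, the genes whose log2(CPM + 1) followed each factor most closely over the 32 sums (8 classes in 4 libraries, which share libraries and depth) were ranked by Pearson correlation among 13125 genes. *Snai1* lay closest to the immediate early genes *Junb* (0.90) and *Ier2* (0.88) and to *Tnfrsf9* (0.90). *Twist1* followed *Col5a1* (0.91) and *Pcolce* (0.89), genes of collagen fibrils, and *Magi2* (0.89), and *Snai2* followed *Fhit* (0.93), *Tle2* (0.91) and *Nhs* (0.91). *Zeb2* followed *Zeb2os* (0.96), an antisense RNA of its own locus counted by strand, *Gstm2* (0.95) and *Gm16118* (0.94), *Zeb1* followed *Abi1* (0.94), *Arhgap17* and *Inpp5f* (both 0.93), and *Twist2* followed *C1s1* (0.92) and *Pla1a* (0.91). Among the factors themselves the pair *Snai2* and *Zeb2* gave 0.63, *Zeb1* and *Zeb2* 0.02 and *Snai1* and *Zeb2* −0.64.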

How the data were processed

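Per the labels and the study's methods, the authors trimmed reads of 4 10x libraries with cutadapt 3.5 and aligned them with STARsolo 2.7.10a to GRCm39 (mm39) with GENCODE M26 plus CreERT2 and reporter sequences, counting UMIs by strand over exons and introns and sharing reads of several genes by expectation maximization. The deposited values are unfiltered expected counts per gene and barcode, of which 9.09% to 9.95% of entries are not whole. They are not normalized, and empty barcodes are included.

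Barcodes were retained if they reached 1000 UMIs and 800 genes, held up to 15% of UMIs from mitochondrial genes and up to 5% from hemoglobin genes, and had a complexity (log genes over log UMIs) of 0.8 or above. Each received a score per marker list, the mean over markers of log(counts per 10000 + 1), scaled to its 98th percentile (95th for EC subtypes) and capped at 1. The class was the highest list, at 0.25 or more and 0.1 above lists of other families (0.2 and 0.05 for EC subtypes). These thresholds were set after the data were seen, and the margin stood in for a doublet caller. They left 1026 of 5119 and 1191 of 5887 mutant cells without a class, against 668 of 6813 and 715 of 6780 control cells. Leiden clusters, made without the factors (scanpy 1.11.5, 4000 variable genes, 50 components, 15 neighbours, resolution 1), held 79.3% to 99.3% of each gated class. Class names were rebuilt here, since no annotation of cells came with the counts, and may differ from those of the study.

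For each class with 10 or more cells in every library, the counts of its cells were added up by library and rounded. Mutants and controls were compared with edgeR 4.0.16 (quasi-likelihood, TMM, R 4.3.3) on genes with at least 40 counts over the 4 libraries, with Benjamini-Hochberg adjustment over all genes of the class and a threshold of 0.05. Levels and genotype effects between classes came from edgeR fits with the library as a block. Alternatives included DESeq2 1.42.0, a stricter count filter (filterByExpr and a count in 20% of cells of either genotype) and a stricter cell filter (2000 UMIs and 10% mitochondrial). An exact permutation test of 2 against 2 libraries cannot give a p under 0.333, and counting error sets the precision of low factors. On simulated data for ECs (13973 genes) the test recovered 79.8% of genes changed 2-fold and 98.9% changed 4-fold, with 10 false calls. At 2-fold it recovered 73.2% in mpECs and 71.6% in mural cells. The simulation gave every gene the same fixed dispersion, so these shares do not measure the real spread between libraries. Free RNA was estimated from barcodes under 100 UMIs.

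The factors and lists were chosen with earlier results of these data known. The genes named are the 6 factors, up to 3 per list and direction with the largest called change in ECs in the same direction in both replicates, the 3 most correlated genes per factor among those reaching 10 CPM, and *Lats2* and Cre-ERT2. Of the genes this rule names, 2 are not reported here. Coordinates are from a GENCODE annotation of GRCm39 and promoters from RefSeq.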

Additional observations from a re-analysis of the deposited data

Results flagged for a closer look

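The genotype effect differed between ECs and another class for 3 of the factors by a direct test, an interaction in 1 edgeR fit with the library as a block. Values are the log2 fold change in ECs minus that in the other class. For *Snai1* the difference was 0.75 ± 0.12 (SE, adjusted p = 3.3e-05) against CHOs, where it fell, −0.73 ± 0.23 (adjusted p = 0.033) against mural cells and −0.85 ± 0.16 (adjusted p = 6.0e-04) against BMSCs. The difference from mural cells was lost with any 1 library left out (adjusted p = 0.060 to 0.23).

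For *Zeb1* it was −0.88 ± 0.12 (adjusted p = 2.0e-06) against CHOs, −0.92 ± 0.13 (adjusted p = 3.2e-06) against mural cells and −0.49 ± 0.13 (adjusted p = 0.012) against BMSCs, the last lost without control 1 (0.14) or control 2 (0.054). For *Zeb2* it was −1.01 ± 0.16 (adjusted p = 1.7e-05) against CHOs, −0.66 ± 0.15 (adjusted p = 0.0027) against mural cells and −0.52 ± 0.15 (adjusted p = 0.023) against BMSCs. The difference from mural cells was lost without mutant 1 (0.059) or control 2 (0.051), and that from BMSCs without mutant 1 (0.28), control 1 (0.054) or control 2 (0.19).

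The mural class held more Myh11-low cells in mutants (50.1% and 52.9% against 6.02% and 7.78%), and with mural groups and EC subtypes weighted equally the log2 ratios in mural cells and ECs were 0.46 and 0.48 for *Snai1*, −1.23 and −0.63 for *Zeb2* and −0.09 and −0.43 for *Zeb1*, so the differences of *Snai1* and *Zeb2* from mural cells did not keep their direction.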

How the results depend on the processing

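Of 29 calls of a factor in a class, 20 held under all alternatives run for them, among them *Zeb1* and *Zeb2* in ECs and *Snai1*, *Snai2* and *Zeb2* in BMSCs and mpMSCs. By setting, DESeq2 lost 6 of 28, leaving out control 1 or control 2 lost 5 of 29 each, and subtracting free RNA lost 0 of 29. In ECs 5179 of 14182 genes were called, 2782 with DESeq2 and 4464 to 4926 with each library left out. In EC subtypes 4 calls of a factor in a subtype were made, 7 without the count filter, 8 with Leiden clusters and 3 to 6 with a library left out. Of the differences of the genotype effect 9 were called, and 5 to 11 with a library left out (5 without control 2). Calls with a library left out ranged from 3 to 4 in ECs, 16 to 19 in the other classes and 34 to 38 for levels between classes. 2 results reversed: *Twist1* in mpMSCs stood at −0.34 (adjusted p = 0.0066) with Leiden clusters, and *Twist1* in ECs minus mural cells at −1.51 (adjusted p = 0.044) without mutant 1, which holds the 2 high barcodes, and at 1.52 (adjusted p = 0.0022) without mutant 2. The difference of the share of ECs with a count, mutants minus controls, was −0.44 percentage points for *Snai1* at 2000 counts per cell, 1.51 at 1000 and 6.65 without thinning. For *Zeb1* it was −15.7, −13.4 and −4.80, and for *Zeb2* −10.9, −6.57 and −15.0. The cause of these shifts was not tested. In aECs, alECs, mpECs and bmECs 1293 of 9610, 343 of 8459, 1564 of 10661 and 680 of 9527 genes were called. With Leiden clusters these were 1704 of 10055, 552 of 8245, 2170 of 11178 and 1194 of 10549. Without the count filter they were 1686 of 21295, 551 of 19940, 2147 of 23195 and 1182 of 22085. Fits with a library left out hold 1 library of a genotype. The numbers of factor calls above therefore do not single out the factors. Whether the replicate numbers pair the samples was not given in the sources used here. Deviations of same-numbered libraries correlated at −0.026 to 0.16, which cannot settle it, since counting error lowers such a correlation. With the replicate number as a block, 5366 genes were called in ECs, and 6 calls of a factor in an EC subtype were made; *Twist1* in ECs (1.71, adjusted p = 0.0059) and *Zeb2* in alECs (−1.91, 0.0010) and mpECs (−0.65, 0.015) gained a call, and *Snai2* in CHOs lost it (0.060). Without barcodes that carry markers of a second class, bmECs, tipECs, mpMSCs, OBs, HCHOs and Myh11-low mural cells were not run, nor tipECs with Leiden clusters, for want of 10 cells in each library. *Twist2* and *Twist1* lay below the count filter in the fit of each EC subtype, while *Twist1* entered the contrasts between subtypes.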
